A study of Mus musculus with 2 samples.

Results

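Transcripts of 5 families of DNA-binding developmental regulators, the Sox, Klf, Tbx, Gata and forkhead (Fox) factors, were compared between 2 mouse epithelial cell lines. Members were all genes whose only annotated symbol on the array is a family name followed by a number, without 11 genes (Foxa1, Foxa2, Foxa3, Foxj1, Foxo1, Foxo3, Foxo4, Gata6, Sox9, Klf5 and Klf14). This gave 79 genes, of 18193 named on the array, read by 190 probe sets (groups of short probes): 30 forkhead, 18 Sox, 14 Klf, 12 Tbx and 5 Gata genes. The tested line is labelled Mle29c and the line it is set against Mlesico. Both were kept in the same serum-containing medium without further treatment, and each was hybridised to 1 expression array. By its title the series is about miR-29c and fibrosis of the lung, but the labels do not say whether the microRNA is raised or lowered in Mle29c cells, nor how either line was derived or whether it is a clone. With 1 array per line no difference has a replicate check, no test was possible, and the number of arrays limits the precision.

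Sox proteins bend DNA through an HMG box, Klf proteins bind GC-rich boxes through zinc fingers, Tbx and Gata proteins bind through a T-box and Gata-type zinc fingers, and Fox proteins bind through a winged helix. In the lung, forkhead, Sox, Gata and Klf factors direct branching, epithelial identity and vessel growth, while Tbx2 to Tbx5 act mainly in the mesenchyme of the bud. Many members are regulated by growth factors, hormones or stress, and several are best known from blood, endothelial or nerve cells.

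The microRNA the series is named for is shown with its relatives, as RefSeq lists them on GRCm38.p6. The capitals mark the seed, bases 2 to 8, which pairs with target transcripts and is shared by the 3 of them.
miR-29c-3p, chr1:195037600-195037621, + strand: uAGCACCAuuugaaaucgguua
miR-29a-3p, chr6:31062673-31062694, - strand: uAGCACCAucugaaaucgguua
miR-29b-3p, chr1:195037091-195037113, + strand: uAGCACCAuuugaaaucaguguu

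The deposited log2 values of each probe set sum to 0 over both arrays, so that the Mle29c and Mlesico values mirror each other. Subtracting the Mlesico value from that of Mle29c gave the log2 ratio, and 1 stands for 2-fold. Centring removed the level of each transcript, but the rounding of the numbers still gives a class: high for a mean log2 level of 8 or more, middle for 4 to 8, and low below 4. Genes with 1 or more high or middle probe sets count as measured, and the ratio of a gene is the median over those. Of the 79 members 62 were measured, by 137 of 190 probe sets (72.1%, against 77.9% of all named probe sets and 41.2% of 80 for olfactory and vomeronasal receptors). By family, 22 of 30 forkhead, 14 of 18 Sox, 13 of 14 Klf, 9 of 12 Tbx and 4 of 5 Gata genes were measured. The class is an estimate, and the low class is noisy. Among members, 62.3% of 53 low, 29.1% of 55 middle and 13.4% of 82 high probe sets differed by 2-fold or more, against 58.1%, 22.8% and 10.5% of all probe sets in those classes. Receptors for smell are a gauge of noise here, since epithelial cells are not known for them: 30.3% of their 33 high or middle probe sets were past 2-fold.

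Forkhead genes held the highest ratios, the Sin3A-binding Klf group had 3 of 5 genes past 2-fold upward, and the Sox and Tbx genes past 2-fold were lower. Of the 62 measured members, 9 were at least 2-fold higher in Mle29c (14.5%, against 8.41% of all 14819 measured genes). In the other direction 4 were at least 2-fold lower (6.45%, against 7.19%). The other 49 were within 2-fold. The median log2 ratio was 0.03 over members and 0.01 over all measured genes, with 32 members above 0 and 30 below. The higher genes were Foxq1, Foxd1, Foxc1, Klf10, Gata1, Klf9, Foxf2, Foxj2 and Klf13, and the lower ones Tbx21, Foxf1, Sox7 and Sox13. Nearest to the threshold were Sox13 at -1.02 on one side of it and Klf17 at -0.92 on the other. Without the genes of chromosome 13, which carry Foxq1, Foxd1, Foxc1 and Foxf2, the higher count was 5 of 56, or 8.93%, against 8.37% of all genes.

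**Figure D1:**
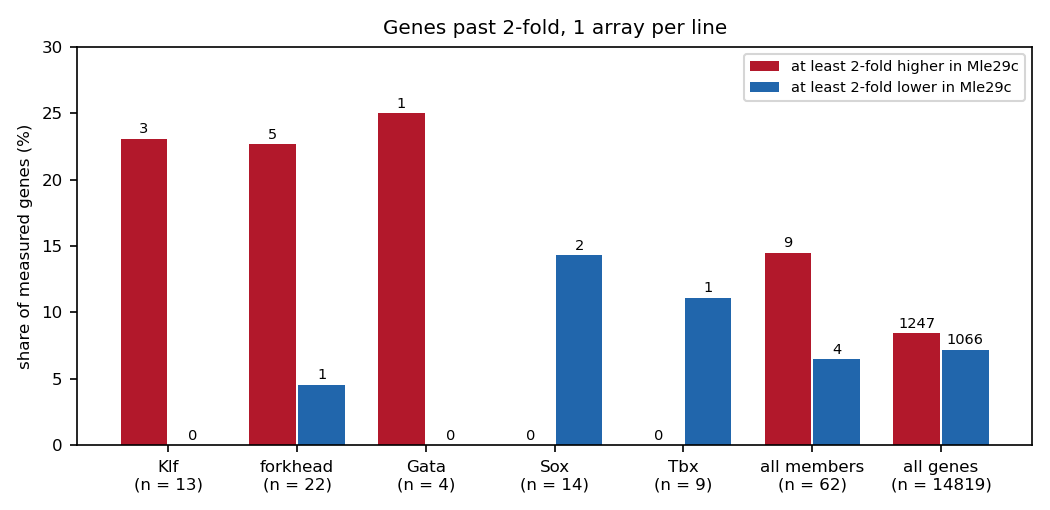
Share of measured genes (percent, vertical axis from 0) at least 2-fold higher (red) or lower (blue) in Mle29c, for each family, all members and all genes, with 1 array per line and the number of genes past 2-fold above each bar. Klf, forkhead and Gata genes past 2-fold were mostly higher in Mle29c, and those of Sox and Tbx were lower, with 5 genes or fewer behind each family bar.

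Support from several probe sets separates these genes. Of 34 members with 2 or more measured probe sets, 3 (Foxq1, Foxc1 and Klf13) had every measured probe set at least 2-fold higher, or 8.82%, against 1.94% of 6893 genes. Foxq1 and Foxc1 belong to the same run of neighbours on chromosome 13, with the non-member Gmds at 1.26. This count was not repeated without that chromosome. Klf13 also had a low-class probe set on the other side, at -1.18. None of the 34 had every measured probe set at least 2-fold lower, against 1.41% of the 6893 genes. All 6 members past 2-fold in this class (Foxq1, Foxc1, Foxf2, Foxj2, Klf9 and Klf13) had every measured probe set above 0, as 552 of the 620 such genes past 2-fold on the array had every one on the side of the median. The other 28 members rest on 1 measured probe set. Of these 3 were higher (10.7%) and 4 lower (14.3%), against 11.5% and 9.82% of the 7926 genes with 1 measured probe set. Each lower call among members thus comes from 1 measured probe set alone. Different probe sets of a member had a pooled SD of 0.44 in log2 ratio, against 0.62 over all genes. That SD describes probe sets read on the same arrays and leaves out differences between cultures.

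Among forkhead genes, 5 of 22 were at least 2-fold higher (22.7%, against 8.41% of all genes), 1 was lower (4.55%, against 7.19%), and the median was -0.01. Foxq1, known as a promoter of epithelial to mesenchymal transition, had centred values of 1.12 and 1.09 in the Mle29c array, against -1.12 and -1.09 in the Mlesico array, for its 2 probe sets. Its ratio of 2.21, or 4.64-fold, was the highest of all members and stood 326th from the top among the 14819 genes. Foxc1, a regulator of mesenchyme and of the eye, had 0.85 and 0.74 in Mle29c, against -0.85 and -0.74 in Mlesico, a ratio of 1.60 or 3.03-fold. For both genes the probe sets lay close together, at 2.25 and 2.18 for Foxq1 and 1.71 and 1.49 for Foxc1. Foxd1, a marker of stromal progenitors in kidney and lung, had 0.92 in Mle29c, against -0.92 in Mlesico, a ratio of 1.85 or 3.60-fold from a high-class probe set. Foxf2, a factor of mesenchyme and pericytes, was at 1.13 from 2 middle-class probe sets that lay apart, at 1.52 and 0.75. Foxj2, a broadly expressed activator, was at 1.09, with probe sets at 1.22 and 0.96. It lies on chromosome 6, whose 772 measured genes had a median of 0.32, and set against that median it was at 0.77, within 2-fold.

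The single lower forkhead gene was Foxf1, which is needed for lung mesenchyme and vessels. Its measured probe set had -0.83 in Mle29c, against 0.83 in Mlesico, a ratio of -1.65. Its low-class probe set lay at -1.75, but that class is too noisy to add support. The class of the measured one came from the rounding step, the less certain route. Thus Foxf1 and Foxf2, close relatives, had ratios of opposite sign. Foxc2, the partner of Foxc1 in mesenchyme and lymphatic vessels, was at -0.26 in 1 probe set.

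The 4 members of the Foxp group were all below 0, from -0.75 to -0.21. These proteins repress transcription, and Foxp1, Foxp2 and Foxp4 act in mouse lung epithelium. Foxp1 was at -0.31, and each of its 8 probe sets was below 0, between -0.48 and -0.09. Foxp2 was at -0.75, with 5 of 6 probe sets between -0.97 and -0.56 and the remaining 1 at 1.52. Both lie on chromosome 6, and set against its median they were at -0.63 and -1.08, which puts Foxp2 past 2-fold. Foxp4 was at -0.21, with probe sets from -0.32 to 0.42, and Foxp3, the factor of regulatory T cells, at -0.33.

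The remaining forkhead genes were within 2-fold. Foxm1, a driver of mitotic genes, was at 0.31 with its 3 measured probe sets between 0.21 and 0.60, and at -0.017 against the median of chromosome 6. A low-class probe set of Foxm1 lay at -2.05. Foxk1 and Foxk2, repressors tied to nutrient state, were at 0.06 and -0.21, the second with all 5 probe sets between -0.36 and -0.09. A low-class probe set of Foxk1 lay at -2.09. The checkpoint factor Foxn3 was at 0.11 in 4 probe sets and Foxn2 at -0.47 in 2. Foxj3 was at -0.04, with measured probe sets at -0.04 and -0.05 and a low-class one at 4.77. Of the rest, Foxd2 was at 0.53, Foxn1, the thymus epithelial factor, at 0.43, Foxd4 at 0.01 and Foxl2 at -0.09, each from 1 probe set. Foxh1, a partner of Smad proteins, was at -0.65 with measured probe sets at -1.16 and -0.14 and a low-class one at 2.25.

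**Figure D2:**
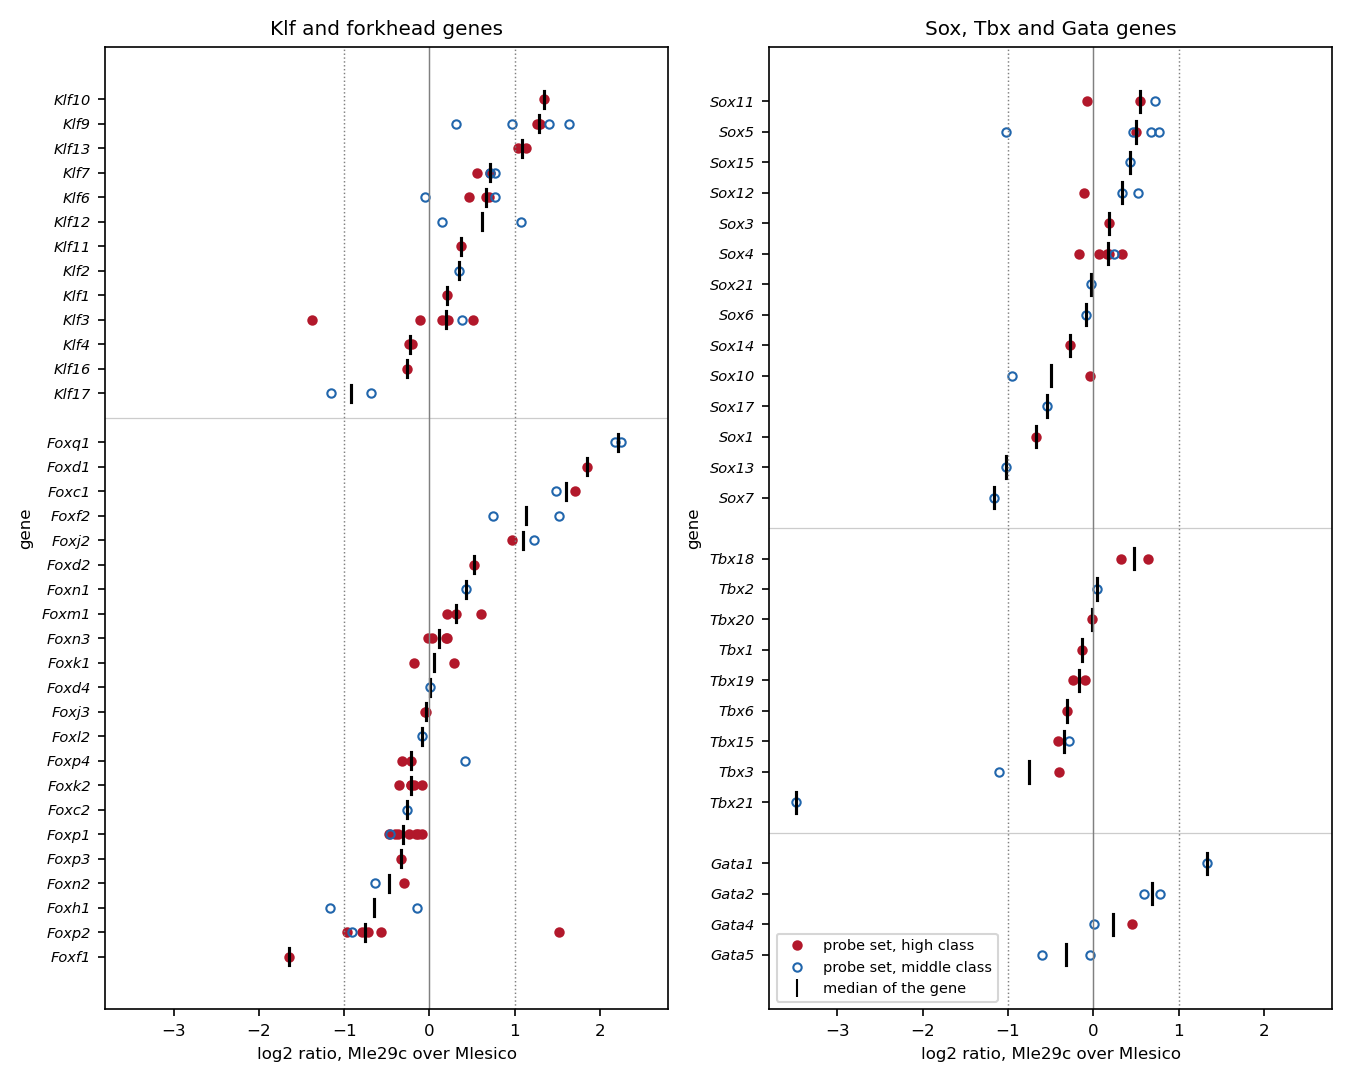
Log2 ratio of Mle29c over Mlesico (horizontal axis) for each measured probe set of the 62 measured members, grouped by family and sorted by the gene's median (black mark), with 2-fold marked by dotted lines. Filled red points are high-class and open blue points middle-class probe sets. The probe sets of Foxq1 and Foxc1 lie together right of the 2-fold line, 1 probe set of Foxp2 lies apart from the other 5, and Tbx21 at -3.49 stands alone at the left.

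Foxq1, Foxf2 and Foxc1 follow each other on chromosome 13 with no other protein-coding gene between them in the GRCm38.p6 gene table, and all 3 were at least 2-fold higher in Mle29c. The next gene, Gmds, an enzyme of GDP-fucose synthesis, was at 1.26 in 2 probe sets. Mylk4, which comes next, had 1 low-class probe set and was not measured. Beyond it Wrnip1 was at -0.16, or 1.09 with every probe set kept, and Serpinb1a was at 0.64, and on the Foxq1 side Exoc2 was at -0.27, Dusp22 at 0.42 and Uqcrfs1 at -0.17. Values past 2-fold among the measured genes of this window were therefore those of 4 neighbours in a row. Foxd1 lies on chromosome 13 as well but among other genes. The chromosome as a whole was not shifted, with a median of -0.07 over 553 genes, and the other members on it, Klf6 and Sox4, were at 0.66 and 0.17. The related group on chromosome 8 did not move together: Foxf1 was at -1.65 and Foxc2 at -0.26, with the gene between them, Mthfsd, at 0.58, and Foxl1 was not measured. Among the T-box neighbours, Tbx2 was at 0.05 and Tbx3 at -0.76, while Tbx4 and Tbx5 beside them were not measured.

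**Figure D3:**
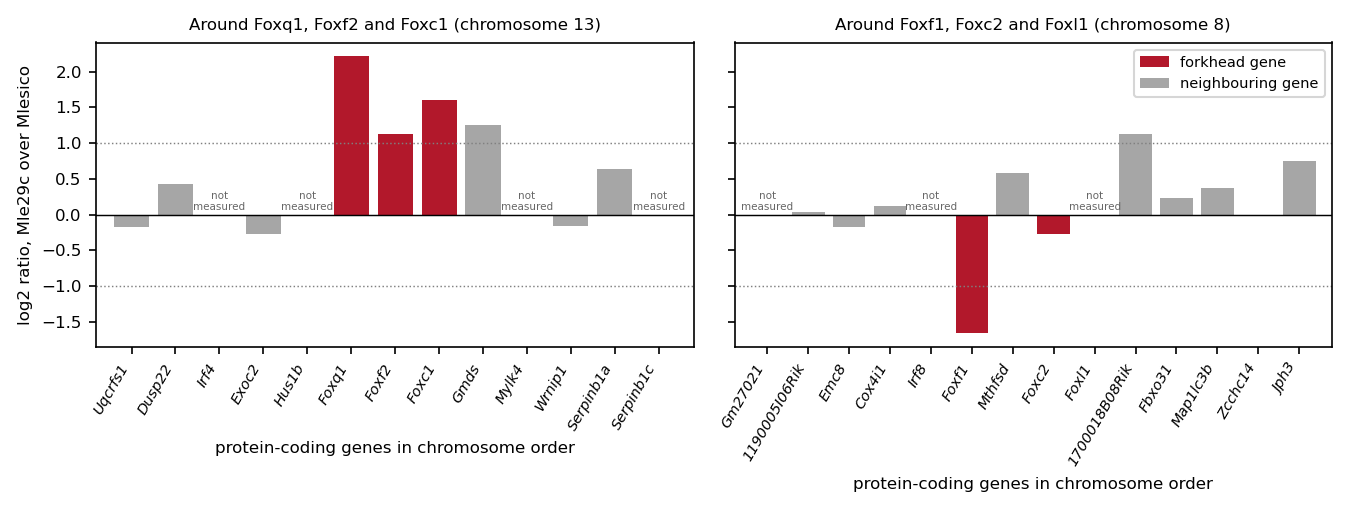
Log2 ratio of Mle29c over Mlesico (vertical axis, 1 array per line) for protein-coding genes in chromosome order around 2 groups of forkhead genes, with dotted lines at 2-fold and spacing not to scale. Red bars are forkhead genes and grey bars their neighbours. Foxq1, Foxf2, Foxc1 and the adjacent Gmds stand above 1 (left), whereas Foxf1 at -1.65 lies among genes between -0.26 and 1.13 (right), where Zcchc14 at -0.01 shows no visible bar.

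Klf genes were mostly above 0 in Mle29c, 10 of 13 with a median of 0.37, against 50.4% of all genes above 0. Of the 13, 3 were at least 2-fold higher (23.1%, against 8.41% of all genes) and none was lower (against 7.19%). All 3 were among the 5 measured members that recruit the corepressor Sin3A. Klf10, induced early by TGF-beta, had 0.67 in Mle29c, against -0.67 in Mlesico, a ratio of 1.35 or 2.54-fold from a high-class probe set. Klf9, induced by glucocorticoids and thyroid hormone, was at 1.29 or 2.44-fold. Of its 7 probe sets 6 were between 0.97 and 1.64 and 1 was at 0.32. Klf13, known from chemokine control in T cells, was at 1.09 or 2.12-fold, with measured probe sets at 1.14 and 1.04 and a low-class one at -1.18. Klf11, which also responds to TGF-beta, was at 0.37 and Klf16 at -0.26. Klf10 lies on chromosome 15 and Klf9 on chromosome 19, whose genes had medians of 0.36 and 0.27. Set against those, Klf10 was at 0.99, just within 2-fold, and Klf9 at 1.02.

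The Klf activators were within 2-fold. Klf7 stood at 0.71 (4 probe sets, 0.55 to 0.76), and Klf6, an early injury response gene, at 0.66 with 4 of 5 probe sets between 0.47 and 0.77. Klf4, a regulator of epithelial differentiation and growth arrest, was at -0.22, with high-class probe sets at -0.21 and -0.24. Klf2, needed in vessels and the late fetal lung, was at 0.34 and Klf1, the erythroid factor, at 0.21. Of the members that bind the corepressor CtBP, Klf3 was at 0.19 with 6 of 7 probe sets between -0.11 and 0.51 and 1 at -1.37. Klf12 was at 0.61, with measured probe sets at 1.08 and 0.15 and low-class ones at 2.82, -0.29 and -0.58. The lowest Klf gene was Klf17, at -0.92 in 2 middle-class probe sets.

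Promoters of members that were higher in Mle29c are shown because they sit beside each other (Foxf2, Foxc1) or belong to the Sin3A-binding Klf group (Klf9, Klf13). Each is RefSeq's 300 bases on GRCm38.p6, from 250 before to 50 after the gene's start, on the strand of the gene. Capitals mark GC boxes (GGGCGG or, on the other strand, CCGCCC), the class of site that Sp and Klf proteins bind, and the forkhead core (TGTTTAC or GTAAACA).
Foxf2, chr13:31625566-31625865, + strand: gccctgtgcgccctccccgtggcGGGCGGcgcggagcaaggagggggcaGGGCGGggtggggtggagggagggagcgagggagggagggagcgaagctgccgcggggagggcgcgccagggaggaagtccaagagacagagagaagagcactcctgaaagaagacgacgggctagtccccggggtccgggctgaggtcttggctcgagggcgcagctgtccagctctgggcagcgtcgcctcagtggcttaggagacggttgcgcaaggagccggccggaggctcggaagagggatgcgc
Foxc1, chr13:31806396-31806695, + strand: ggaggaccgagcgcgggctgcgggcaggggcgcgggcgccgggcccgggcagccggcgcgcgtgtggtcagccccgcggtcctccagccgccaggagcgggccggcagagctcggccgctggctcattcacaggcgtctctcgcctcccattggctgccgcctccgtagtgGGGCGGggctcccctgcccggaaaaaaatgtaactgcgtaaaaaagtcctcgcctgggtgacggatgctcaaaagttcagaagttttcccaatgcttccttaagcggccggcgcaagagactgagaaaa
Klf9, chr19:23140976-23141275, + strand: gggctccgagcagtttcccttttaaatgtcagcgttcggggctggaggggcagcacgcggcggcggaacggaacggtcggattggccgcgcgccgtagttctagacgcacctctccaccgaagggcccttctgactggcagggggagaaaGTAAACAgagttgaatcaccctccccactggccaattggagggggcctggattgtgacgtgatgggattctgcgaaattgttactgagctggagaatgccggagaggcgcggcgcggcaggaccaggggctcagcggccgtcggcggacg
Klf13, chr7:63938866-63939165, - strand: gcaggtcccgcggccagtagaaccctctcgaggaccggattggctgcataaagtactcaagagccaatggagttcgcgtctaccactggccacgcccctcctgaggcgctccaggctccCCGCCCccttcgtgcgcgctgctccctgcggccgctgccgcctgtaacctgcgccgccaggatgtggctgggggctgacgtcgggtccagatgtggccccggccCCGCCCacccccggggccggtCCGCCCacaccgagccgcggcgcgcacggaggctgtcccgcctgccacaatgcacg

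The Foxf2, Foxc1 and Klf13 windows hold 2, 1 and 3 GC boxes. The Klf9 window holds none of these, and 1 forkhead core. A GC box was found in 41 of 68 promoters of the 56 members that matched the table (60.3%), against 35.7% of 32851 promoters, in windows that were also richer in G and C (median 63.0%, against 52.7%). The forkhead core was in 2 of the 68, those of Klf9 and Sox12, or 2.94%, against 3.65% of all. A CACCC box (CCACCC or GGGTGG) was in 41.2%, against 31.5%, and a Gata core (AGATAA or TTATCT) in 5.88%, against 11.2%. Neighbouring GC and CACCC boxes can share G or C letters and were counted separately, and a match describes the window only.

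No measured Sox gene was at least 2-fold higher (against 8.41% of all genes) and 2 of 14 were lower (14.3%, against 7.19%). Of the 14, 6 were above 0 (42.9%, against 50.4% of all genes), with a median of -0.05. The median was above 0 in the high class, at 0.063, with every probe set kept, at 0.23, and at 0.18 without probe sets shared between transcripts. The SoxC genes, which act in progenitor cells, were slightly above 0. Sox4 was at 0.17, with 6 probe sets from -0.16 to 0.34, 5 of them high-class. Sox11 was at 0.55 and Sox12 at 0.33, each with 1 of 3 probe sets below 0. The measured SoxF genes, known for endothelial cells, were below 0. Sox7 had -0.58 in Mle29c, against 0.58 in Mlesico, a ratio of -1.16, and its low-class probe set lay at -1.90. Sox17 was at -0.54 in its measured probe set and at -3.08 in the low-class one. Sox18 was not measured, and its low-class probe set lay on the other side, at 1.21. These low-class values are too noisy to add support. Of 6 measured endothelial markers, 2 were lower (Egfl7 at -1.62, with 4 probe sets from -3.51 to -0.02, and Tek at -1.57) and 1 was higher (Vwf at 1.40). Cldn5, Cdh5 and Kdr were at 0.56, 0.05 and 0.01. Pecam1, Tie1, Erg and Emcn were not measured. Their part in the Sox7 value was not tested.

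The SoxD genes, partners of other Sox proteins without an activation domain of their own, went different ways. Sox13 was at -1.02 in 1 middle-class probe set, and at -0.98 against the median of chromosome 1. Sox5 was at 0.50 with 4 of 5 probe sets between 0.46 and 0.78 and 1 at -1.03, and Sox6 at -0.09. Sox10, the neural crest factor, was at -0.50. Of 3 measured neural markers Tubb3 was at -1.49, Elavl3 at -0.62 (3 probe sets, -1.92 to 2.17) and Map2 at 0.24 (4 probe sets, 0.05 to 2.43). Of the SoxB genes, known from stem and neural progenitor cells, Sox3, Sox21, Sox14 and Sox1 were between -0.67 and 0.18. Sox15 was at 0.43.

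Tbx genes had 7 of 9 values below 0 (22.2% above 0, against 50.4% of all genes) and a median of -0.17. Of the 9, 1 was at least 2-fold lower (11.1%, against 7.19% of all genes) and none was higher (against 8.41%). Tbx21, which encodes T-bet, the regulator of type 1 helper T cells, had -1.75 in Mle29c, against 1.75 in Mlesico, a ratio of -3.49 and 11.3-fold higher in Mlesico. It was the lowest of all members, from 1 middle-class probe set whose class came from the rounding step. Of 7 measured immune cell markers, 1 was at least 2-fold higher in Mle29c (Laptm5 at 1.02, with 4 probe sets from -1.60 to 2.06, and at 0.77 with every probe set kept) and none was lower, Cd68 being lowest at -0.99, and the T cell gene Cd3e was at 0.78. Ptprc and Tyrobp were not measured. The part of immune transcripts in the Tbx21 value was not tested. Tbx3, a repressor that holds back senescence, was at -0.76 with measured probe sets at -1.11 and -0.41. The low-class probe sets of Tbx3 lay at 2.46, -0.31 and -0.57. Its relative Tbx2 was at 0.05 in 1 probe set. Tbx18, a factor of mural and mesothelial cells, was at 0.48 with high-class probe sets at 0.64 and 0.32. Tbx15, Tbx6, Tbx19, Tbx1 and Tbx20 were between -0.34 and -0.02.

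Gata genes had 3 of 4 values above 0. Gata1, the erythroid and megakaryocyte factor, had 0.67 in Mle29c, against -0.67 in Mlesico, a ratio of 1.34 from 1 middle-class probe set. Gata2, a factor of blood stem cells and endothelium, was at 0.69 with probe sets at 0.78 and 0.60, and at 0.37 against the median of chromosome 6. The heart and gut factors Gata4 and Gata5 were at 0.23 and -0.32.

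The 17 members with low-class probe sets alone are Foxb1, Foxb2, Foxd3, Foxe3, Foxi1, Foxl1, Foxn4, Foxs1, Gata3, Klf15, Sox2, Sox8, Sox18, Sox30, Tbx4, Tbx5 and Tbx22. Their ratios ran from -3.04 for Tbx22 to 1.40 for Klf15, with Sox8 at -2.40 and Sox2, the airway progenitor factor, at 0.01. Gata3, a factor of T cells and luminal epithelium, was at 0.50. Tbx4 and Tbx5, which drive outgrowth of the lung bud from mesenchyme, had probe sets at 1.69 and 0.31 and at 1.10 and -2.71. Since 58.1% of all low-class probe sets pass 2-fold, no size is drawn from these values.

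Genes linked to these families were described by lists. Genes outside the naming rule that share a symbol root or a DNA-binding fold with the families had 3 of 21 at least 2-fold higher (14.3%), 2 lower (9.52%) and a median of 0.01, against 8.41% higher and 7.19% lower among all measured genes. Trps1, a Gata-type repressor, had the largest ratio by far in that list, 4.02, with all 4 probe sets between 3.59 and 4.90. Foxred2, at 1.37, carries an oxidoreductase domain and is no forkhead factor despite its symbol, as is its relative Foxred1 at -0.41, so that 2 of the 3 higher genes are DNA-binding factors. Tcf7l2, an HMG-box effector of Wnt signalling, was at 1.05 with 3 probe sets from 0.89 to 1.11. The Gata-like factor Zglp1 was at -2.22 and the Klf relative Sp6 at -1.07, each in 1 probe set. The Sp factors Sp1, Sp3 and Sp4 were at -0.10, 0.14 and 0.68.

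The median of 28 cofactors was 0.11, and 5 of them were past 2-fold upward (17.9%, against 8.41% of all genes) and 2 downward (7.14%, against 7.19%). The Groucho corepressors Tle1 and Tle4, which forkhead and HMG-box proteins recruit, were at 1.22 and 1.17, the first with both probe sets past 2-fold and the second with probe sets from 0.15 to 1.29. The homeobox gene Nkx2-5, a Gata4 and Tbx5 partner in the heart, was at 1.17 in 1 probe set. The other 2 were Ldb1, an adaptor in Gata1 complexes, at 1.06, and the ubiquitin ligase gene Wwp1, which targets Klf proteins, at 1.02. Lmo2, another part of Gata1 complexes, was at -1.37 and Zfpm2, a Gata4 cofactor, at -1.21. The Sin3 genes that the Sin3A-binding Klf group uses were at -0.11 and -0.14, and the CtBP genes at 0.04 and -0.16.

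Reported targets showed no common side, in lists not split by whether a factor raises or lowers the gene. Of all measured genes 15.6% were past 2-fold in either direction, 8.41% higher and 7.19% lower. Of 19 FoxM1 targets, 1 was past 2-fold (5.26%), Ccnb2 at 1.14, and the median was 0.10, with Cenpf lowest at -0.61. Of 18 Klf2 and Klf4 targets 1 was higher (5.56%), Cdh1 at 1.46, and 4 were lower (22.2%, or 27.8% in either direction), with a median of -0.07. Among the lower were the adhesion gene Vcam1 at -4.87 in 3 probe sets, the keratin gene Krt13 at -2.14 and the receptor gene Tek at -1.57. Targets of SoxF factors had a median of 0.05 over 17 genes, and 3 were past 2-fold on each side (17.6% each, 35.3% together). They were Notch1 at 3.22, Hey1 at 1.35 and Ccnd1 at 1.22, with Vcam1, Prox1 at -2.19 and Ephb4 at -1.42. Prox1 rests on 1 measured probe set and was at 0.75 with every probe set kept. Of 12 Gata targets 2 were higher (16.7%, Spi1 at 2.001 and Vwf at 1.40) and 1, Tek, lower (8.33%), with a median of 0.29. Some genes stand in more than 1 list.

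**Figure D4:**
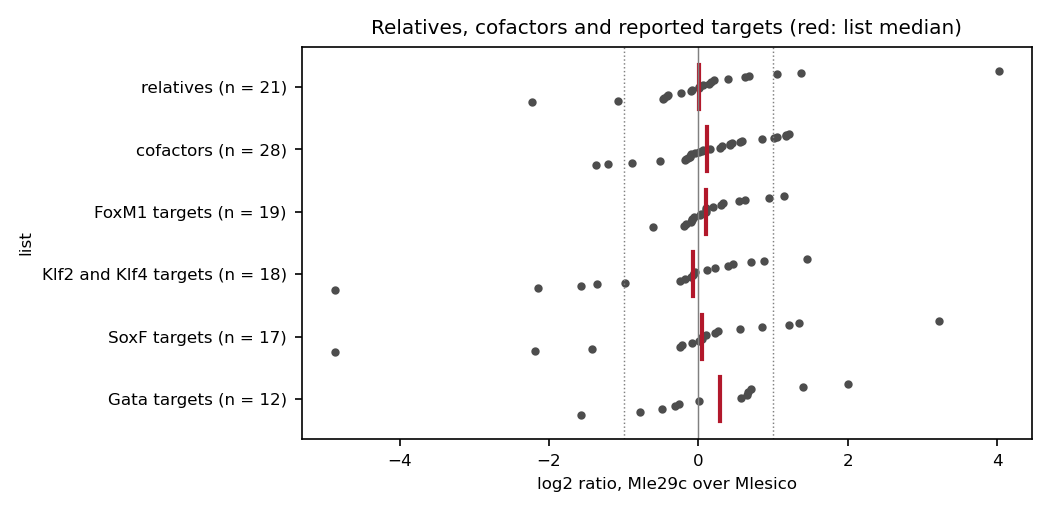
Log2 ratio of Mle29c over Mlesico (horizontal axis) for each measured gene of 6 lists, with the list median as a red bar and 2-fold as dotted lines. The medians lie between -0.07 and 0.29, and Trps1 at 4.02 and Notch1 at 3.22 stand apart at the right, with Vcam1 at -4.87 at the left in both lists that hold it.

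The labelled cell type could not be checked by level. Of 10 epithelial markers 8 were measured and 3 had a high-class probe set, as did 3 of 10 endothelial, 3 of 10 mesenchymal and 3 of 9 immune markers. Most of these calls came from the rounding step, the less certain route. By the firmer route, the sum of both values, the numbers were 1 epithelial, 0 endothelial, 1 mesenchymal and 0 immune. In ratio, 2 of the 8 epithelial markers were above 0, Cdh1 at 1.46 and Krt8 at 0.63. The other 6 were below it, Esrp1 at -4.51, Tjp1 at -0.62, Epcam at -0.52, Krt18 at -0.20, Cldn7 at -0.09 and Krt19 at -0.06, and the median was -0.14. Cldn4 and Ocln were not measured. Among 8 measured mesenchymal markers none was at least 2-fold higher in Mle29c, and Col1a1 at -3.41 and Prrx1 at -2.37 were lower. Of the list 5 were above 0, with Lum highest at 0.67, and the median was 0.07. These values stand beside the ratios of Foxq1, Foxc1, Foxf1 and Foxf2, and their part in them was not tested.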

How the data were processed

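Total RNA of each line was labelled with biotin and hybridised to 1 array of 45101 probe sets. Per the submitters' processing notes MAS5 was used; neither a version nor a centring step is given in the sources used here. The authors' deposited numbers were read as log2, although no base is stated. Their values of both arrays sum to 0 within 1e-06 for every probe set, so levels are lost. A natural log would make every fold larger than printed. Groups follow the sample titles.

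Probe sets were named through the platform's annotation (34945 name 1 gene, 932 several, 9160 none here, 64 are array controls), with symbols and chromosomes from a GRCm38.p6 gene table that holds 34741 of the 34945. The level class was read from the single-precision rounding of the deposited log2 values. Where both values did not cancel, their sum gave the class; otherwise the rounding step did. The 284 probe sets under 0.001 in size were not classed. Tested on simulated data with known levels, classes from the sum were right for 96.0% of probe sets and those from the step for 69.3%. A call of high from the step was the least certain, right for 54.7%, though 89.4% of such calls were truly at level 4 or above.

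Genes named in the text are all members past 2-fold, the extremes of each family, preset members, the remaining members in ranges, and up to 3 genes per side of each list. Members and lists were chosen with earlier results of these data known. Neighbouring genes, the promoters shown, and Ldb1, Wwp1 and the Sp, Sin3 and CtBP genes were chosen after the values were seen. Alternatives were every probe set, the high class, the class from the sum, the mean, probe sets not shared between transcripts, centring within chromosomes and other thresholds. Python 3.11.15, pandas 2.3.3 and NumPy 2.4.6 were used.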

Additional observations from a re-analysis of the deposited data

How the results depend on the processing

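No paired analysis was possible because each line has 1 array. No member past 2-fold changed sign under any alternative that gave it a value. In 64 of 69 such values it was still past 2-fold on its side; the exceptions were Foxf2 (0.75) with the class from the sum, Foxj2 in the high class (0.96), and Foxj2 (0.77), Klf10 (0.99) and Sox13 (-0.98) centred within chromosomes. Of the members past 2-fold, 7 have 1 measured probe set. For these the mean, both class settings and unshared probe sets could only return the same value or none, and check nothing. Of 57 alternative counts and medians, 39 lay within 1.5 times the count or within a set margin of the median. That margin was the SD between probe sets over the root of the number of genes. It leaves out the spread between genes and is no standard error. With every probe set kept, 15 of 79 members were higher (18.99%, against 12.4% of all genes) and 9 lower (11.4%, against 10.9%). In the high class 5 of 41 were higher (12.2%, against 6.42%) and 1 lower (2.44%, against 5.24%). At 4-fold 1 of 62 was higher (1.61%, against 2.67%) and 1 lower (1.61%, against 2.31%). Lower members numbered 9 at 1.5-fold (14.5%, against 15.2%) and 2 of 37 with the class from the sum (5.41%, against 6.06%). Chosen after the data were seen, 5 of 56 were higher without chromosome 13 (8.93%, against 8.37%). Also chosen then, 3 of 34 were higher where every one of 2 or more measured probe sets had to pass (8.82%, against 1.94%), which left 0 lower (1.41% of all genes). Of these 3, Foxq1 and Foxc1 are neighbours on chromosome 13. Medians that moved were, with every probe set kept, 0.15 for all members and 0.23 for Sox; with the class from the sum, 0.26 for all members, 0.66 for Klf, 0.068 for Tbx (2 genes) and 0.19 for forkhead genes; and, without shared probe sets, 0.18 for Sox. Fewer or more probe sets enter by construction. With every probe set kept, Sox17 was at -1.81, Foxn1 at 2.21, Sox3 at 1.28, Sox21 at 1.24, Tbx20 at 1.02, Foxl2 at 0.95, Sox6 at 0.88 and Sox1 at 0.29. The cause was not tested.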

Other observations

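Probe sets of 1 member gene differed in places. Among members with 3 or more measured probe sets, the widest gaps to the median of the others were those of Foxp2 (1.52, against -0.79 over 5 others), Sox5 (-1.03, against 0.59 over 4), Klf3 (-1.37, against 0.20 over 6) and Klf9 (0.32, against 1.29 over 6). For Foxp2, Sox5 and Klf3 the sign differed too.

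Members with a probe set classed high from the sum, the firmer route, numbered 16. Of these 4 were at least 2-fold higher in Mle29c (Foxd1, Klf9, Klf10 and Klf13) and none was lower, with a median of 0.27, against -0.02 over the 4921 genes with such a probe set, of which 4.98% were past 2-fold in either direction. This subset was chosen after the values were seen.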
